A study of Mus musculus with 6 samples.

Results

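The proteasome, the barrel-shaped protease that degrades ubiquitin-tagged proteins, was followed through its subunit genes and through Nfe2l1, the transcription factor that drives those genes. All protein-coding rows whose symbol was Psma, Psmb, Psmc or Psmd followed by a number only were taken, plus Nfe2l1, which gave 40 genes out of 54385 rows in the table. Of these, 39 passed the low-count filter and Psma8, the testis form of an alpha subunit, did not. Total RNA came from interscapular brown fat, a heat-producing depot, of C57BL/6N mice 20 weeks old; the sample labels name this depot, while the design text says inguinal. Both genotypes shared the same history of chow up to 8 weeks of age, then 12 weeks of high-fat diet and 24 h at 4 °C. The genotypes were wt/wt (wild type, 3 libraries) and ADCY3∆AT (3 libraries), a knockout of the AT form of the cAMP-producing enzyme adenylyl cyclase 3. Warm or chow-fed mice were not analysed here. The labels state neither sex, nor how the allele was made, nor whether a library is 1 animal, so the p-values speak of the spread between libraries, which may be technical in part.

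Library totals ran from 44826777 to 54933588 estimated counts. Adcy3 itself had 677, 728 and 652 CPM (counts scaled to library size with TMM factors) in wt/wt, against 349, 342 and 506 CPM in ADCY3∆AT (adjusted p = 0.158 in edgeR and 4.3e-07 in DESeq2). A row outside the annotation, ENSMUSG66666620654, stood at 477 to 629 CPM in wild type and at 0 in each library of ADCY3∆AT (edgeR adjusted p = 7.9e-06). The brown fat marker Ucp1 stood at 10327 to 10647 CPM in wt/wt, against 9972 to 10243 CPM in ADCY3∆AT. Its groups lay just apart (log2 fold change -0.06 ± 0.04, SE, edgeR adjusted p = 0.67). Summed over 10 skeletal muscle markers, the level was 796 to 1683 CPM in wt/wt, against 225 to 559 CPM in ADCY3∆AT. Of the ADCY3∆AT sums, 223, 363 and 359 CPM came from Mb alone, whose groups overlapped. For 9 of 10 markers (against 8.83% of all genes) the groups lay apart with ADCY3∆AT lower. Acta1 had 73.8, 58.7 and 169.8 CPM in wt/wt, against 0.94, 8.74 and 26.2 CPM in ADCY3∆AT. Ckm was at 0 in ADCY3∆AT replicate 1. The part of this muscle difference in the results that follow was not tested. In whole tissue, fewer cells of a type and less RNA per cell cannot be told apart.

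The proteasome consists of a 20S core, a stack of alpha and beta rings, and a 19S regulatory particle that recognises, unfolds and threads in the substrate. Proteolysis is carried out by PSMB5 (chymotrypsin-like), PSMB6 (caspase-like) and PSMB7 (trypsin-like), and interferon-induced PSMB8, PSMB9 and PSMB10 take their respective places in the immunoproteasome. NFE2L1 is made in the endoplasmic reticulum and normally degraded by the proteasome itself. When proteasome capacity falls short, it is cut free, enters the nucleus and binds antioxidant response elements in the promoters of subunit genes, and it is known to sustain proteasome activity in brown fat in the cold.

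The stretches before the RefSeq start sites (GRCm38.p6) of Psmb5 and Psmb6 are shown because these constitutive catalytic genes hold a match to TGACNNNGC, the core of the antioxidant response element, marked in capitals. Psmb5 lies on the minus strand at chr14:54617996-54618245, where the last bases before the start site fall in the first exon of GENCODE transcripts of the gene. Psmb6 lies on the plus strand at chr11:70525107-70525356, which overlaps no annotated exon. Both are read 5′ to 3′ toward the gene.
Psmb5: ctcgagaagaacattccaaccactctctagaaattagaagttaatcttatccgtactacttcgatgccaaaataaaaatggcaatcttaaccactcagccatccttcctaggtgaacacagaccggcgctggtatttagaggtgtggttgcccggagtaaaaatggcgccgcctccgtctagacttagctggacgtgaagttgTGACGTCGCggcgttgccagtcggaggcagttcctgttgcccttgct
Psmb6: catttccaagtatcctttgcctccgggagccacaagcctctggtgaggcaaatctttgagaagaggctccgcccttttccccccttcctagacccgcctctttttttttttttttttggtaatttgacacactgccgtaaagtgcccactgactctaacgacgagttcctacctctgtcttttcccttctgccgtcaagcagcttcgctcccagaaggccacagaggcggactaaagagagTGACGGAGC

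Windows of 300 bases, from 250 before to 50 after the start site, were available for 33 of the 40 genes. The TGACNNNGC core was found on either strand in 5 of these 33 genes (15.2%), a share close to the 14.0% of all 27025 genes with a window. The 5 matches, each written in the direction of the motif, were as follows.
Psmb5: TGACGTCGC
Psmb6: TGACGGAGC
Psmc6: TGACTTAGC
Psmd9: TGACCCCGC
Psmd12: TGACACAGC
Both constitutive catalytic genes with a window, Psmb5 and Psmb6, thus held a match, at 47 and 9 bases upstream. Psmb7, the remaining constitutive catalytic gene, had no window and was not searched. Psmb8, Psmb9 and Psmb10 held none, and neither did Nfe2l1. GENCODE transcripts of Psmb8 and Psmb9 start upstream of these windows, and the Psmb10 window overlaps the first exon of its transcript, so sequence before those starts was not all searched. The core of the interferon-stimulated response element stood on either strand in Psmb3, Psmd4 and Psmd9 (9.09% of the 33, against 3.99% of all genes) and in none of the 3 immunoproteasome windows. Both motifs stood in Psmd9 without overlapping. A match describes letters only and is no evidence of binding.

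In wild-type brown fat each immunoproteasome gene lay below its standard partner per length. Levels between genes are given as CPM per kb of annotated exons. Over the 34 subunits other than the immunoproteasome genes, Psma8 and Psmb11, the median wild-type level was 22.7 CPM per kb, with a range from 1.81 (Psmd9) to 110 (Psmb5). Psmb5 had 110 ± 6.47 CPM per kb, Psmb6 36.8 ± 1.61 and Psmb7 31.7 ± 1.48 (SD, n = 3 each). Of the immunoproteasome genes, Psmb10 had 6.97 ± 0.54 CPM per kb, Psmb8 2.55 ± 0.05 and Psmb9 1.20 ± 0.07. Psmb9 had the lowest of these and Psmb11, the thymic catalytic subunit, the lowest of all 39 tested genes with 0.177 ± 0.006 CPM per kb. Nfe2l1 had 96.8 ± 2.69 CPM per kb, second to Psmb5. Among the low standard genes, Psmd5, Psmd9 and Psmd10 code for assembly chaperones that leave the finished particle. With the longest coding transcript as length Nfe2l1 (113 CPM per kb) stood above Psmb5 (110). On that scale Psmb6 had 86.3 and Psmb7 93.4 CPM per kb, much nearer to Psmb5. The distance of Psmb5 from Psmb6 and Psmb7 thus depended on the length used.

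**Figure D1:**
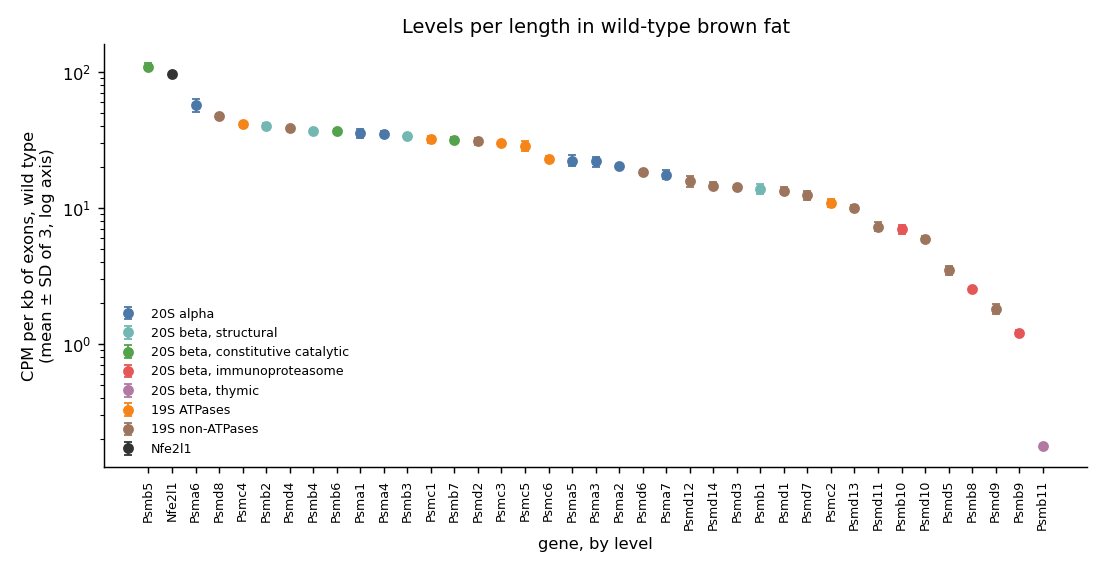
Wild-type level of each of the 39 tested genes, in CPM per kb of annotated exons on a log axis, as mean ± SD of 3 libraries, coloured by role. Psmb5 is at 110 and the 3 immunoproteasome genes are between 1.20 and 6.97.

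No member passed the threshold between the genotypes, while most standard subunits lay slightly lower in ADCY3∆AT. With edgeR's quasi-likelihood test and Benjamini-Hochberg adjustment over 18114 genes, 0 of 39 members were called at an adjusted p of 0.05, against 0.00552% of all genes tested. The lowest adjusted p among members was 0.303. DESeq2 (1.15% of genes called) and limma voom (0.0110%) called 0 members too. A negative fold change was found for 34 of 39 members (87.2%), against 49.1% of all genes, and the median log2 fold change was -0.10, against 0.00 over all genes. At an unadjusted p under 0.05 there were 9 members lower (23.1%, against 5.78% of all genes) and 0 higher (against 5.23%). The groups did not overlap, with every ADCY3∆AT library lowest, for 16 of 39 members (41.0%, against 8.83% of all genes), and for 0 in the opposite direction (against 7.68%). These 39 genes were counted in the same 6 libraries and belong to 1 complex, so they are not independent counts of a difference. The 9 members lower at an unadjusted p became 3 without wild-type replicate 2, 4 without ADCY3∆AT replicate 2 and 6 with the replicate number as a block.

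**Figure D2:**
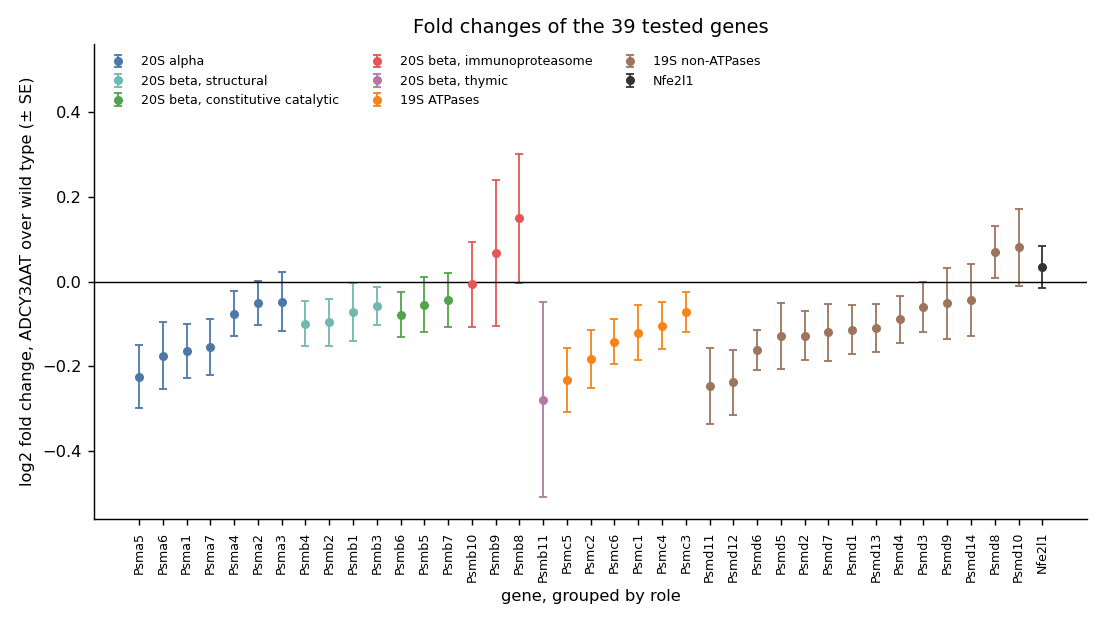
Log2 fold change (ADCY3∆AT over wild type, ± SE of the edgeR fit) of the 39 tested genes, grouped by role. Most standard subunits are below 0, with none past the threshold, while Psmb8, Psmb9, Psmd8, Psmd10 and Nfe2l1 are above 0.

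Summed over all 39 subunit genes, the level was 2325, 2386 and 2222 CPM in wt/wt, against 2151, 2167 and 2179 CPM in ADCY3∆AT. No ADCY3∆AT value reached the lowest of wild type, and wild-type replicate 3 came nearest to them. The means were 2311 ± 83.1 and 2166 ± 14.0 CPM (SD, n = 3 each), a difference of -6.27%, given with no test because the members were summed. Between wild-type libraries the same sum differed by more than between the lowest wild-type library and the highest ADCY3∆AT library. Of the 34 standard subunits, 22, 26 and 20 were below the lowest wild-type library in ADCY3∆AT replicates 1, 2 and 3. Wild-type replicate 2 held the highest of 6 values for 24 of the 34. The summed muscle markers were also lower in each ADCY3∆AT library, and within wild type they were lowest in replicate 2 (796 CPM) and highest in replicate 3 (1683 CPM).

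**Figure D3:**
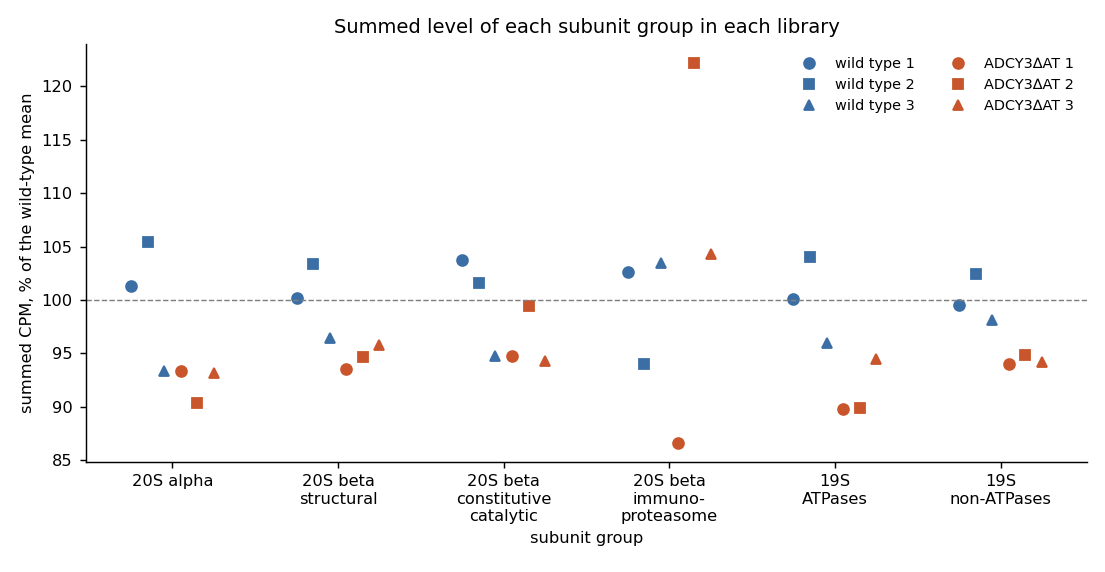
Summed CPM of each subunit group in each library, as percent of the wild-type mean (dashed line at 100). The immunoproteasome group spreads from 86.6% to 122% within ADCY3∆AT, while the 19S non-ATPase group lies between 94.0% and 94.8% there.

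The alpha subunits form the outer rings that gate the entry to the core. All 7 tested members lay below 0 (median -0.15 on the log2 scale), and 3 had an unadjusted p under 0.05, against 5.78% of all genes lower at that p (Psma5, Psma1 and Psma7). Psma5 had 30.8, 31.4 and 26.5 CPM in wt/wt, against 25.2, 24.5 and 26.1 CPM in ADCY3∆AT. The groups lay apart, though replicate 3 of wild type and replicate 3 of ADCY3∆AT nearly met. Its log2 fold change was -0.22 ± 0.07 (SE, edgeR adjusted p = 0.334). Psma1 had 104.8, 111.8 and 97.4 CPM in wt/wt, against 96.4, 92.9 and 90.8 CPM in ADCY3∆AT, also apart, with -0.16 ± 0.06 (edgeR adjusted p = 0.399). Psma8 was barely detected, with no library above 0.164 CPM and replicate 2 of ADCY3∆AT at 0.

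The structural beta subunits Psmb1 to Psmb4 carry no active site in the mammalian core. All 4 had a small negative fold change, from -0.10 to -0.06 on the log2 scale, and none had an unadjusted p under 0.05. Psmb4 had 72.8, 74.1 and 70.7 CPM in wt/wt, against 64.7, 68.0 and 70.5 CPM in ADCY3∆AT, with groups just apart and a log2 fold change of -0.10 ± 0.05 (SE, edgeR adjusted p = 0.534). Psmb2 had 50.5, 49.0 and 46.3 CPM in wt/wt, against 43.9, 47.4 and 45.2 CPM in ADCY3∆AT, where the groups overlapped (log2 fold change -0.10 ± 0.06, edgeR adjusted p = 0.573).

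The constitutive catalytic subunits had the smallest median log2 fold change of the standard groups (-0.05). Psmb5 (ENSMUSG00000022193, GRCm38 chromosome 14, 54614119 to 54618022, minus strand) had 104.1, 100.1 and 92.6 CPM in wt/wt, against 89.6, 99.8 and 96.3 CPM in ADCY3∆AT. Psmb6 (ENSMUSG00000018286, plus strand of chromosome 11, 70525367 to 70527858) had 69.0, 71.8 and 65.8 CPM in wt/wt, against 66.5, 63.5 and 65.6 CPM in ADCY3∆AT. Psmb7 (ENSMUSG00000026750, minus strand of chromosome 2, 38588036 to 38644087) had 113.3, 108.6 and 103.2 CPM in wt/wt, against 105.6, 111.3 and 98.5 CPM in ADCY3∆AT. The groups overlapped for all 3 genes. The log2 fold change was -0.05 for Psmb5 (95% interval -0.20 to 0.09), -0.08 for Psmb6 (-0.20 to 0.04) and -0.04 for Psmb7 (-0.19 to 0.10), with edgeR adjusted p-values of 0.797, 0.630 and 0.840.

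The immunoproteasome subunits showed no common direction, and their summed level spread more between ADCY3∆AT libraries (104 ± 17.8% of the wild-type mean, SD, n = 3) than that of any standard group. Psmb8 (ENSMUSG00000024338, plus strand of chromosome 17, 34197721 to 34201454) had 8.58, 8.47 and 8.79 CPM in wt/wt, against 7.57, 11.9 and 9.17 CPM in ADCY3∆AT. Psmb9 (ENSMUSG00000096727, minus strand of chromosome 17, 34181987 to 34187764) had 4.56, 4.11 and 4.55 CPM in wt/wt, against 3.50, 5.59 and 4.76 CPM in ADCY3∆AT. For both genes ADCY3∆AT replicate 1 was the lowest and replicate 2 the highest of all 6 libraries, so the wild-type values lay inside the ADCY3∆AT range. Psmb10 (ENSMUSG00000031897, minus strand of chromosome 8, 105935735 to 105938444) had 12.4, 10.8 and 12.4 CPM in wt/wt, against 10.5, 12.9 and 12.1 CPM in ADCY3∆AT, with the same libraries at the extremes. The log2 fold changes were 0.15 ± 0.15 for Psmb8, 0.07 ± 0.17 for Psmb9 and -0.01 ± 0.10 for Psmb10 (SE), with edgeR adjusted p-values of 0.760, 0.921 and 0.988. Their 95% intervals were -0.20 to 0.50, -0.33 to 0.46 and -0.23 to 0.22. The signs of Psmb8 and Psmb9 turned without ADCY3∆AT replicate 2 (-0.04 and -0.09). Exons of Psmb9 overlap those of Tap1 on the opposite strand, so reads of the pair can only be told apart where strand was used in counting, a setting not given in the sources used here.

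**Figure D4:**
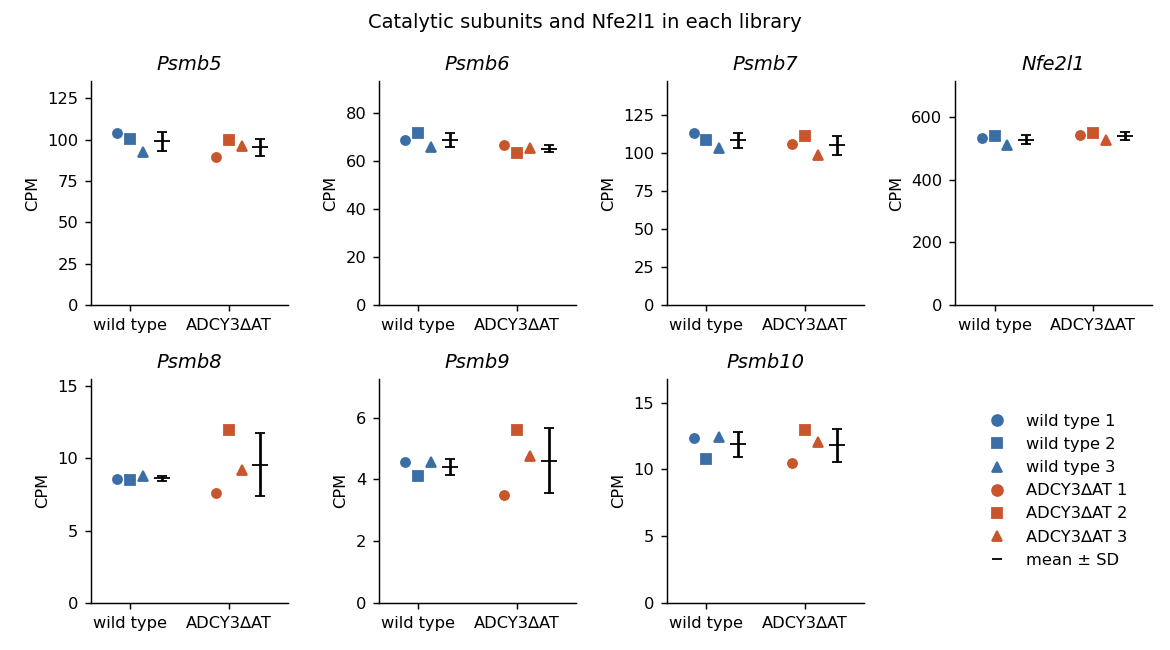
CPM of the catalytic subunits and of Nfe2l1 in each library, with mean ± SD of 3 libraries beside them and axes from 0. Psmb8 lies between 8.47 and 8.79 in wild type and between 7.57 and 11.9 in ADCY3∆AT.

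To compare both kinds of catalytic subunit in all 6 libraries, the summed level per kb of Psmb8, Psmb9 and Psmb10 was divided by that of Psmb5, Psmb6 and Psmb7. This ratio was 5.95%, 5.49% and 6.61% in wt/wt, against 5.63%, 7.11% and 6.48% in ADCY3∆AT. The means were 6.02 ± 0.56% and 6.41 ± 0.74% (SD, n = 3 each), the ranges overlapped, and the difference was smaller than either SD. By pair, Psmb8 reached 2.32 ± 0.18% of Psmb5 in wild type and 2.65 ± 0.47% in ADCY3∆AT. Psmb9 reached 3.28 ± 0.32% and 3.63 ± 0.91% of Psmb6, and Psmb10 reached 22.0 ± 2.1% and 22.6 ± 2.4% of Psmb7. The highest Psmb8 and Psmb9 ratios were those of ADCY3∆AT replicate 2. The pair ratios depend on the length used, since with the longest coding transcript the wild-type means were 4.82%, 3.79% and 9.71%, while the summed ratio was 6.09%.

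**Figure D5:**
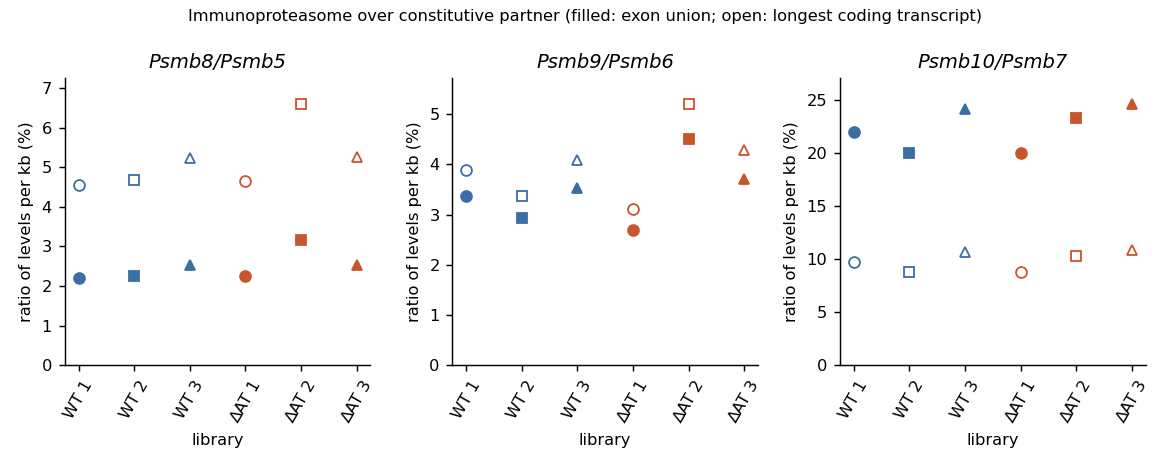
Level per kb of each immunoproteasome subunit as percent of its constitutive partner in each library, with exon length (filled) and longest coding transcript (open), and axes from 0. ADCY3∆AT replicate 2 has the highest Psmb8 to Psmb5 and Psmb9 to Psmb6 ratios on both scales.

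The 6 ATPases Psmc1 to Psmc6 form the ring that unfolds substrates. All 6 lay below 0 (median -0.13 on the log2 scale), and Psmc5, Psmc6 and Psmc2 had an unadjusted p under 0.05 (against 5.78% of all genes lower). Psmc5 had 41.6, 42.2 and 36.1 CPM in wt/wt, against 32.3, 33.4 and 36.3 CPM in ADCY3∆AT. Replicate 3 of ADCY3∆AT lay just above replicate 3 of wild type, so the groups overlapped (log2 fold change -0.23 ± 0.08, SE, edgeR adjusted p = 0.331). Psmc6 had 79.3, 84.9 and 78.2 CPM in wt/wt, against 74.4, 71.9 and 73.5 CPM in ADCY3∆AT, with the groups apart (-0.14 ± 0.05, edgeR adjusted p = 0.383). As a group, the ATPases had the lowest summed level relative to wild type among the standard groups, 91.4 ± 2.7% of the wild-type mean, against 100 ± 4.0% in wild type (SD, n = 3 each).

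The 14 non-ATPase genes code for the scaffold, the lid, ubiquitin receptors and assembly chaperones. A negative fold change was found for 12 and the median was -0.11 on the log2 scale, and 7 of 14 had their groups apart with ADCY3∆AT lower (against 8.83% of all genes). Psmd6, a lid subunit, had the lowest p of all members, with 50.8, 53.1 and 52.0 CPM in wt/wt, against 47.4, 45.1 and 46.8 CPM in ADCY3∆AT. Both groups were narrow and lay apart, and the log2 fold change was -0.16 ± 0.05 (SE), with an edgeR adjusted p of 0.303. Psmd12, another lid subunit and a gene with a TGACNNNGC match, had 41.7, 45.7 and 37.9 CPM in wt/wt, against 33.2, 36.5 and 36.5 CPM in ADCY3∆AT (-0.24 ± 0.08, edgeR adjusted p = 0.331). The lid subunit Psmd11 was the third with an unadjusted p under 0.05 (-0.25 ± 0.09). Psmd8 of the lid (0.07 ± 0.06) and the chaperone Psmd10 (0.08 ± 0.09) were the 2 with a positive fold change, and both had overlapping groups.

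Nfe2l1 RNA was nearly the same in both genotypes. The gene (ENSMUSG00000038615, GRCm38 chromosome 11, 96817414 to 96829968, minus strand) had 531.9, 537.6 and 509.9 CPM in wt/wt, against 542.0, 548.9 and 526.1 CPM in ADCY3∆AT. The groups overlapped, and replicate 3 was the lowest of each. The means were 526.5 ± 14.6 and 539.0 ± 11.7 CPM (SD, n = 3 each), with a log2 fold change of 0.03 ± 0.05 (SE, 95% interval -0.08 to 0.15, edgeR adjusted p = 0.839). An exact permutation test (two-sided, on log2 CPM) gave p = 0.4, with 0.1 the smallest that 3 against 3 libraries allow. NFE2L1 acts after cleavage of its protein, which RNA levels do not measure.

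The enzymes and partners of NFE2L1 showed no common direction. Of 15 tested genes, 9 had a positive fold change and the median was 0.01 on the log2 scale, none passed in edgeR or DESeq2, and 1 was higher at an unadjusted p under 0.05 (against 5.23% of all genes). Mafk, a small MAF partner in DNA binding, had 18.9, 15.7 and 19.6 CPM in wt/wt, against 19.4, 21.9 and 23.0 CPM in ADCY3∆AT (0.25 ± 0.10, SE, edgeR adjusted p = 0.424). Ngly1, which strips the sugars off NFE2L1, had -0.10 ± 0.05, with 73.5 to 75.0 CPM in wt/wt, against 68.3 to 70.2 CPM in ADCY3∆AT (edgeR adjusted p = 0.466).

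None of the 9 other genes listed as targets of antioxidant response elements passed the threshold. Of 9, 8 had a negative fold change and the median was -0.20 on the log2 scale, and 4 were lower at an unadjusted p under 0.05 (against 5.78% of all genes). NFE2L2 also drives this list. Txnrd1, thioredoxin reductase, had 119.6, 129.6 and 127.3 CPM in wt/wt, against 101.3, 102.6 and 116.5 CPM in ADCY3∆AT, apart in every library (-0.23 ± 0.07, SE, edgeR adjusted p = 0.303). Srxn1, sulfiredoxin, had 88.1, 84.5 and 78.2 CPM in wt/wt, against 67.5, 73.2 and 77.4 CPM in ADCY3∆AT (-0.20 ± 0.07, edgeR adjusted p = 0.350). The others of the 4 were Gclm (-0.31 ± 0.12) and Gclc (-0.20 ± 0.08), which make glutathione. ADCY3∆AT replicate 3 was the nearest to wild type for all 4.

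None of the listed genes that work beside the proteasome passed the threshold. The shuttling receptors and deubiquitinases of the 19S particle had 9 of 10 negative fold changes (median -0.06), led by the shuttle receptor Rad23b (-0.13 ± 0.05, SE, edgeR adjusted p = 0.395). The assembly chaperones had 6 of 9 negative (median -0.06), a list that includes the members Psmd5, Psmd9 and Psmd10, with Ecpas (-0.11 ± 0.05) and Psmg1 (-0.14 ± 0.07) lowest in p. The activators and the inhibitor had 3 of 5 negative (median -0.01), where Psme3, the nuclear activator, had -0.13 ± 0.07 and Psme2, a subunit of the interferon-induced activator, had 0.12 ± 0.07. The polyubiquitin gene Ubb had a log2 fold change of 0.05 ± 0.08 (SE, edgeR adjusted p = 0.842).

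Genes of antigen presentation, which share interferon control with the immunoproteasome, had 9 of 10 positive fold changes (median 0.09), with 2 higher at an unadjusted p under 0.05 (against 5.23% of all genes) and none called in edgeR or DESeq2. H2-D1, a class I heavy chain, had 205.7, 186.9 and 202.2 CPM in wt/wt, against 210.4, 257.9 and 231.5 CPM in ADCY3∆AT (0.23 ± 0.08, SE, edgeR adjusted p = 0.345). Tapbp, tapasin of the peptide-loading complex, had 64.3 to 66.2 CPM and 70.1 to 74.0 CPM (0.13 ± 0.05, edgeR adjusted p = 0.381). Summed over the list, ADCY3∆AT replicate 2 was the highest library (959 CPM) and replicate 1 lay inside the wild-type range of 736 to 797 CPM at 772 CPM.

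The summed leukocyte markers were highest in ADCY3∆AT replicate 2, where Psmb8, Psmb9 and Psmb10 were also highest. In ADCY3∆AT replicate 1, where Psmb8, Psmb9 and Psmb10 were lowest, the sum lay inside the wild-type range. The sum of Ptprc, Coro1a and Laptm5 was 25.9, 19.01 and 21.9 CPM in wt/wt, against 23.7, 33.2 and 28.1 CPM in ADCY3∆AT. Laptm5 alone was highest in wild-type replicate 1 (6.21 CPM, against 6.16 CPM in ADCY3∆AT replicate 2). Myeloid markers (8 genes) summed to 70.9 to 117 CPM in wt/wt, against 85.5, 130 and 124 CPM in ADCY3∆AT. T cell markers (6 genes) were near the limit of detection, at 1.17 to 1.49 CPM in wt/wt, against 1.12 to 2.56 CPM in ADCY3∆AT, with Cd3e at 0 in ADCY3∆AT replicate 1. B cell markers (5 genes) summed to 10.4 to 18.4 CPM in wt/wt, against 16.2 to 40.5 CPM in ADCY3∆AT. Ptprc, the pan-leukocyte CD45 gene, passed in DESeq2 (0.54 on the log2 scale, adjusted p = 0.0426) and not in edgeR (adjusted p = 0.270). Endothelial markers (6 genes) summed to 860 to 929 CPM in wt/wt, against 932 to 993 CPM in ADCY3∆AT. The groups lay apart with ADCY3∆AT higher for 4 of 6 (against 7.68% of all genes). They overlapped for Kdr and Emcn, which had negative log2 fold changes (-0.04 and -0.07). The cadherin gene Cdh5 passed in DESeq2 (0.28, adjusted p = 0.0202) and not in edgeR (adjusted p = 0.212). The tight junction gene Cldn5 had the largest difference of the list (0.81 ± 0.20, SE, edgeR adjusted p = 0.223). Fibroblast markers (5 genes) summed to 183 to 227 CPM and 206 to 212 CPM. Brown adipocyte markers (9 genes) summed to 18188 to 18474 CPM in wt/wt, against 17427 to 18210 CPM in ADCY3∆AT, lowest in replicate 3. Most of this sum came from Ucp1 (wild-type mean 10486 CPM, against 18374 CPM for the sum). By gene, 5 of the 9 brown adipocyte markers were lower in ADCY3∆AT and 4 were higher, centred near no difference (median -0.02 on the log2 scale). Among these 9 Elovl3, a fatty acid elongase, passed in DESeq2 (-0.38, adjusted p = 0.0332) and not in edgeR (adjusted p = 0.305). The part of these cell types in the proteasome values was not tested.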

How the data were processed

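Libraries were paired-end, from total RNA (NEBNext Ultra II kit, per the labels). The values the authors deposited are estimated counts for each Ensembl gene with no normalisation; 31.6% are fractional. The submitters' processing notes list Salmon, StringTie, edgeR and GRCm38; roles, versions and quantifier settings were not stated there. Symbols and exon lengths were taken from GENCODE M21 (GRCm38), which matched 54131 of 54385 rows. Each header was matched to a sample description. Libraries of 1 group differed by far more than sampling noise (chi-square per degree of freedom 22.3 to 54.5), so none was treated as a duplicate.

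Estimated counts were rounded, filtered with filterByExpr (18114 genes left), scaled with TMM factors and tested with edgeR 4.0.16 in R 4.3.3 (quasi-likelihood F test, genotype as the only term, Benjamini-Hochberg threshold 0.05). The SE was derived from the F statistic, and 95% intervals use it. Log2 CPM used a prior count of 2. The scripts were tested on simulated data. DESeq2 1.42.0, limma 3.58.1 voom, other scalings and filters, a replicate block and each library left out were alternatives. Promoters came from RefSeq (GRCm38.p6). Pseudogene rows named after a subunit held at most 6.21 counts.

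Members and lists were chosen with earlier results of these data known. The naming rule covers Nfe2l1, the catalytic subunits, Psmb11, Psma8, the extremes of level, and the 2 lowest p-values of each role group and related list. Others, such as Psma7, Psmc2, Psmd8, Psmd10, Psmd11, Gclc, Gclm, Ptprc, Cdh5, Cldn5 and Elovl3, were named after their values were seen. Exons of 11 members overlap another annotated gene, so their values are uncertain where strand was not used. For 2 of them the overlap is on the same strand, Psmb5 with Mir686 and Psmd1 with Gm21972, which use of strand does not resolve. Some genes that the naming rule covers are not reported here.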

Additional observations from a re-analysis of the deposited data

How the results depend on the processing

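No setting called a member: the count of called members was 0 in every alternative, including each library left out. The count of genes called over the whole table, 1 in edgeR, was 229 in DESeq2, 2 in limma voom, 214 with no low-count filter and 3 with the replicate number as a block, and ran from 1 to 66 with a library left out, highest without ADCY3∆AT replicate 3. With a library left out, members lower at an unadjusted p under 0.05 ran from 3 to 13 and members higher from 0 to 1, and the log2 fold change of Nfe2l1 ran from 0.01 to 0.05. The sign of Psmb10 turned with library totals alone (0.0086). With a library left out, the range crossed 0 for Psmb10 (-0.0754 to 0.0711), Psmb8 (-0.0421 to 0.29), Psmb9 (-0.0942 to 0.23) and Psmb7 (-0.0868 to 0.0005). Psmb5 ran from -0.10 to -0.01 and Psmb6 from -0.11 to -0.05. The summed difference between genotypes was -5.20% with library totals alone and ran from -8.04% to -4.72% with a library left out. Without division by length the ratio of immunoproteasome to constitutive subunits was 9.03% in wild type and 9.76% in ADCY3∆AT. Deviations from the group means correlated at -0.086, -0.128 and -0.086 between same-numbered libraries, and from 0.004 to 0.093 between differently numbered ones. No pairing by replicate number was seen, but with 3 libraries per group these values cannot exclude one. The block left 0 members called. The cause of these changes was not tested.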
